A study of Mus musculus with 9 samples.

Results

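Astrocytes, the glial cells that take up glutamate, buffer potassium and line the vessels of the brain, respond to injury by a state called reactive. In that state they build more intermediate filaments, secrete protease inhibitors and iron-binding proteins, and can form a scar around an infarct. The state is often split by gene lists from isolated mouse astrocytes: pan-reactive genes, genes of the A1 class, named from inflammation, and genes of the A2 class, named from middle cerebral artery occlusion. The gene set described here holds 24 such reactive genes (4 intermediate filament, 6 pan-reactive, 10 A2 and 4 A1 genes) and 6 genes of resting astrocytes, 30 of the 55385 gene rows in the table. They were chosen by name, from knowledge of astrocytes but with earlier results of these data known, and each symbol had 1 row. In the table's build, mm10, the genes described most fully lie at chr11:102887336-102897200 (Gfap, minus strand), chr2:32384633-32387797 (Lcn2, minus strand), chr12:104406729-104414329 (Serpina3n, plus strand) and chr10:56377330-56402513 (Gja1, plus strand), each from the first to the last base of the gene.

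The libraries held total RNA, depleted of ribosomal RNA, from the ischemic hemisphere of male C57BL/6 mice aged 8 to 10 weeks. Transient middle cerebral artery occlusion (tMCAO) is a model of ischemic stroke in which a filament closes the artery and is then withdrawn, here after 90 min. The groups were tMCAO with celastrol, a plant triterpenoid given into the peritoneum at 4.5 mg/kg when reperfusion began, tMCAO without the drug, and sham surgery without occlusion, with 3 libraries each. How long after reperfusion the tissue was taken, how many animals a library holds and whether tMCAO or sham mice received vehicle is not stated in the labels. The p-values therefore describe only how far these libraries differ from each other, which may be technical. A hemisphere holds all brain cell types and infarcted as well as spared tissue, and fewer cells of a type and less RNA per cell cannot be told apart in it.

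Promoter sequence is shown for the reactive genes whose 250 bases before a RefSeq start held a match to the STAT motif TTCNNNGAA, since STAT3 is a known driver of the reactive state in mice. Both strands were searched, also for the AP-1 motif TGANTCA and for a kappaB motif, in the 21 reactive and 5 resting genes that the RefSeq table (build GRCm38.p6) held. The STAT motif stood before 4 of the 21 reactive genes (19.0%) and 1 of the 5 resting genes (Slc1a3), against 8.13% of all 27025 genes. The AP-1 motif stood before 2 reactive genes (Emp1 and Sphk1) and 1 resting gene (Gja1), against 7.82% of all genes, and the kappaB motif before 2 reactive genes (Steap4 and Vim) and 0 resting genes, against 5.67%. Each sequence below runs 5′ to 3′ on the gene's own strand and ends 1 base before the start, with STAT and AP-1 matches in capitals. Tgm1 lies on the minus strand (chr14:55713493-55713742) and held 2 STAT matches, whose first bases lie 173 and 64 bases before the start. Steap4 (plus strand, chr5:7960222-7960471) held 1 STAT match, 116 bases before it. Emp1 (plus strand, chr6:135362681-135362930) held 2 STAT matches, at 120 and 22 bases, and 2 AP-1 matches, at 145 and 25 bases, of which the one at 25 overlaps the STAT match at 22. Sphk1 (plus strand, chr11:116531587-116531836) held 1 AP-1 match at 50 bases and 1 STAT match at 41 bases, which do not overlap. A match is a run of letters and shows no binding.
Tgm1: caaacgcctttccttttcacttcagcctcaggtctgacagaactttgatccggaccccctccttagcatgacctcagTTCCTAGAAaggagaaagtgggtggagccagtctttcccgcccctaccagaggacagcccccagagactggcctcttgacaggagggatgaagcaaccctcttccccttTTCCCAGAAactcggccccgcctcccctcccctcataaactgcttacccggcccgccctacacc
Steap4: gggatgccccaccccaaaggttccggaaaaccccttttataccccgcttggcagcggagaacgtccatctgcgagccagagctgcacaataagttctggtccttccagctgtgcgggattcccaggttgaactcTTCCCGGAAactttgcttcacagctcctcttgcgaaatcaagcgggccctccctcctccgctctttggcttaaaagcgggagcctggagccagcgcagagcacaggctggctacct
Emp1: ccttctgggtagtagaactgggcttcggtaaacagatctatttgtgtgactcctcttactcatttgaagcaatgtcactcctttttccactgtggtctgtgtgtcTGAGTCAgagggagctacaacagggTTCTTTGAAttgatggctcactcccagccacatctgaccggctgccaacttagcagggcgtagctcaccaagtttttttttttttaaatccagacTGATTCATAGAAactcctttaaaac
Sphk1: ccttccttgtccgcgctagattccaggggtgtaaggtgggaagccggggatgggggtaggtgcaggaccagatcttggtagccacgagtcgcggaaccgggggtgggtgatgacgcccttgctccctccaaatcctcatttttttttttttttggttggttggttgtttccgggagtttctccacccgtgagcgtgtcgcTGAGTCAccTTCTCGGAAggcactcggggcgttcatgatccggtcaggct

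Estimated counts summed to between 60392960 and 75158625 per library. Levels are given as CPM, counts scaled to library size by the trimmed mean of M values (TMM), and differences as log2 fold changes with a standard error (SE) from 1 edgeR quasi-likelihood fit over all 9 libraries and 16982 genes. A gene was called at an adjusted p (Benjamini-Hochberg over all genes) under 0.05. By that rule 0 of the 30 genes were called in any comparison. The background was as low: 2 genes of all tested for both occluded groups together against sham (0.0118%; Arrb1 and Fcgr4), 0 for tMCAO against sham (0%), 1 for tMCAO with celastrol against sham (0.00589%; Fcgr4) and 0 for the drug (0%). These 2 genes are named because they were called, and not by the rule for named genes. At an unadjusted p under 0.05 edgeR had 2274, 2534, 1445 and 698 genes in the 4 comparisons. DESeq2, run as an alternative, called 797, 836, 380 and 19 genes, among them 20, 20, 13 and 0 of the 30. Counts at an unadjusted p are therefore given below as a description, beside the share of all genes that reach it. Celastrol replicate 2 stood apart: it was the lowest of the 6 occluded libraries for 17 of the 23 reactive genes tested. Without it edgeR called 13, 10 and 4 of the 30 genes in the 3 comparisons with sham, where 198, 90 and 43 of all genes were called. Over well-counted genes of the whole table it was nearer to each sham library than to any other occluded library. Chi-square per degree of freedom between its counts and theirs was 91.4 to 120.5 for sham and 145 to 202 for occluded libraries. By this measure tMCAO replicate 2 was also nearer to sham replicate 1 (102.4) than to tMCAO replicates 1 and 3 (126.0 and 123.5).

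The reactive genes were higher in both occluded groups than in sham, and the median change of the resting genes was close to 0. At an unadjusted p under 0.05, 22 of 23 reactive genes were higher in both occluded groups together (8.00% of all genes), 17 in tMCAO with celastrol (5.69%) and 19 in tMCAO (8.56%). The median log2 fold change of the reactive genes was 1.78 in tMCAO with celastrol and 2.53 in tMCAO, where the median of all genes was 0.00 and 0.01. Without celastrol replicate 1 the median with celastrol was 1.16 and the count 12, where 811 of 16700 genes reached that p in either direction. With all libraries, the median log2 fold change of the 6 resting genes was −0.11 in tMCAO with celastrol and −0.03 in tMCAO. Every occluded library lay above every sham library for 14 reactive genes (4.20% of all genes). Every library of tMCAO with celastrol did so for 16 (7.89%), and every tMCAO library for 20 (12.4%). Scaled by library totals, Vim and Tm4sf1 overlapped sham with celastrol and Emp1 did not, which gave 13 genes in place of 14 for all occluded libraries and 15 in place of 16 for those with celastrol.

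Of the 24 reactive genes, 23 passed the filter on low values (an FPKM, fragments scaled for gene length and library size, of 0.5 or more in 3 or more libraries), and 8 of these passed only through occluded libraries: Steap4, Cd109, Emp1, Ptx3, Tgm1, Clcf1, Slc10a6 and Sphk1. Such genes had to be higher after occlusion, so the counts over the genes that passed describe them and do not support a direction. Among the 13 reactive genes at or above that FPKM in every sham library, 8 were higher in tMCAO with celastrol (5.69% of all genes) and 10 in tMCAO (8.56%) at an unadjusted p under 0.05. Their median log2 fold changes were 1.43 and 2.31.

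**Figure D1:**
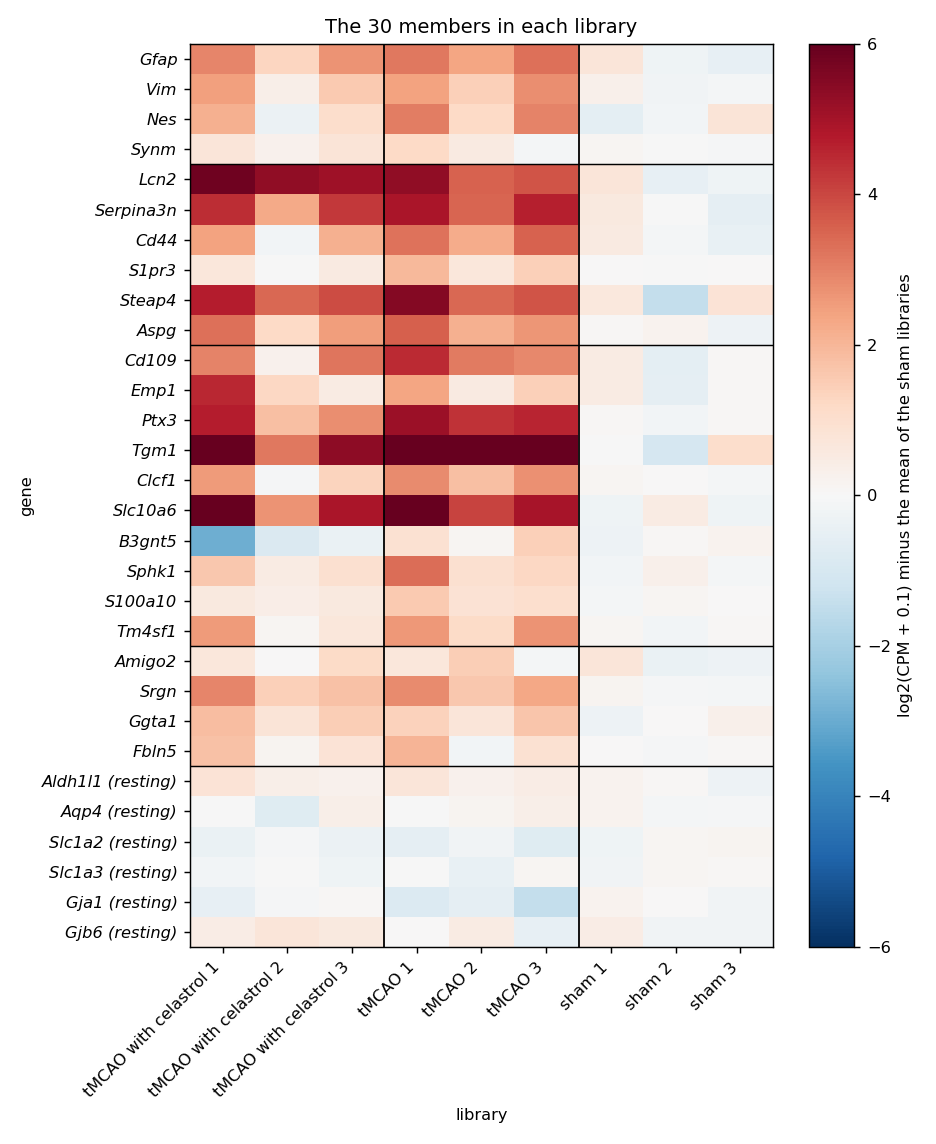
Levels of the 30 genes (rows, grouped by lines into filament, pan-reactive, A2, A1 and resting genes) in each of the 9 libraries (columns), as log2(CPM + 0.1) minus the mean of the sham libraries; colours end at 6 in each direction. The reactive rows are red in most occluded libraries and palest in celastrol replicate 2, and the resting rows stay near white.

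The intermediate filament genes build the cytoskeleton that marks the reactive cell. Gfap, the defining astrocyte filament, had 1176, 378 and 974 CPM in tMCAO with celastrol, 1380, 800.3 and 1495 CPM in tMCAO, and 253, 128 and 109.7 CPM in sham. Every occluded library lay above every sham library, and the lowest of them was celastrol replicate 2. The log2 fold change of Gfap was 2.36 ± 0.48 (SE) for tMCAO with celastrol against sham and 2.90 ± 0.49 for tMCAO against sham (edgeR adjusted p = 0.184 and 0.0924). Vim, the filament of immature and reactive astrocytes and of vascular and immune cells, had 159, 37.0 and 84.1 CPM in tMCAO with celastrol, 154, 77.0 and 199.7 CPM in tMCAO, and 35.8, 24.5 and 26.5 CPM in sham. Occluded and sham libraries did not overlap, though celastrol replicate 2 was close to the highest sham library and overlapped it when scaled by library totals. Its log2 fold changes were 1.69 ± 0.51 and 2.31 ± 0.52.

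Nes, the filament of neural progenitors that reactive astrocytes and growing vessels make again, had 50.5, 9.04 and 23.6 CPM in tMCAO with celastrol, 97.7, 26.3 and 89.8 CPM in tMCAO, and 7.57, 10.02 and 19.4 CPM in sham. The celastrol libraries overlapped sham (log2 fold change 1.17 ± 0.67), and the tMCAO libraries were all above it (2.53 ± 0.70). Synm, which joins the other filaments, had 86.9, 62.8 and 91.8 CPM in tMCAO with celastrol, 121, 76.1 and 48.1 CPM in tMCAO, and 57.0, 51.4 and 50.5 CPM in sham. Here the tMCAO libraries overlapped sham and the celastrol libraries did not, and both log2 fold changes were small (0.60 ± 0.29 with celastrol and 0.63 ± 0.29 in tMCAO). Synm overlaps Ttc23 on the other strand, and S1pr3 and Aqp4 overlap rows of far lower counts on the other strand too. Slc1a3 overlaps such a row on its own strand, and some other genes also overlap rows of far lower counts. No label says whether the counting told the strands apart.

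Per length, Gfap stood at 180 ± 94.6 FPKM in tMCAO with celastrol, 265 ± 84.2 FPKM in tMCAO and 33.3 ± 16.8 FPKM in sham (SD, n = 3 each). The glutamate transporter Slc1a2 stood at 172 ± 14.2, 151 ± 23.7 and 199.8 ± 25.99 FPKM in the same 3 groups, so the mean of Gfap was above that of Slc1a2 in both occluded groups and below it in sham. Gfap was below Slc1a2 in celastrol replicate 2 (74.8 against 188 FPKM) and in tMCAO replicate 2 (170.3 against 178 FPKM).

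Among the pan-reactive genes, Lcn2 and Serpina3n had the smallest p in both comparisons with sham. Serpina3n, a secreted serine protease inhibitor, had 414, 92.0 and 364 CPM in tMCAO with celastrol, 571, 214 and 493 CPM in tMCAO, and 28.5, 18.7 and 13.1 CPM in sham. The lowest occluded library, celastrol replicate 2, was still well above the highest sham library. Its log2 fold changes were 3.85 ± 0.62 and 4.40 ± 0.64 (edgeR adjusted p = 0.128 and 0.0907). Lcn2, which encodes lipocalin 2, a protein that binds iron-loaded siderophores, had 158, 111 and 94.5 CPM in tMCAO with celastrol, 108, 31.6 and 37.9 CPM in tMCAO, and 4.51, 1.86 and 2.21 CPM in sham. It was the gene of the 30 nearest to the threshold, with log2 fold changes of 5.40 ± 0.60 (edgeR adjusted p = 0.0552) and 4.37 ± 0.57 (adjusted p = 0.0907), and 4.88 ± 0.57 for both occluded groups together (adjusted p = 0.0508). Celastrol replicate 2, low for most reactive genes, was at the level of the other celastrol libraries for Lcn2.

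Lcn2 is also a granule gene of neutrophils. The summed level of 12 neutrophil markers was 43.1, 21.5 and 38.5 CPM in tMCAO with celastrol, 21.6 to 22.8 CPM in tMCAO and 7.34 to 8.23 CPM in sham. Of them, Elane was at 0 in every library, Ly6g and Camp were at 0 in tMCAO, and Cxcr2, Ly6g and Retnlg were at 0 in sham. The sham sum was mostly Csf3r (4.885, 7.435 and 6.936 CPM). Ngp had 6.08, 1.78 and 5.49 CPM with celastrol, 0.109, 0.581 and 0 CPM in tMCAO, and 0.335, 0 and 0.190 CPM in sham. Of 6 markers tested, 5 were higher with celastrol (5.69% of all genes) and 4 in tMCAO (8.56%) at an unadjusted p under 0.05. Of the 6, 3 passed the filter only through occluded libraries. For the drug, 4 of the 6 had positive and 2 negative log2 fold changes. The part of neutrophils in the Lcn2 result was not tested.

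Steap4, a metalloreductase that reduces iron and copper, had 7.15, 2.82 and 4.05 CPM in tMCAO with celastrol, 12.1, 2.88 and 3.60 CPM in tMCAO, and 0.321, 0 and 0.380 CPM in sham. Those sham levels rest on 45 counts over the group, against 1002 and 1327 in tMCAO with celastrol and tMCAO. Aspg, an asparaginase, had 21.6, 5.02 and 12.6 CPM in tMCAO with celastrol, 26.1, 9.52 and 13.9 CPM in tMCAO, and 2.22, 2.48 and 1.69 CPM in sham, without overlap (log2 fold changes 2.61 ± 0.55 and 2.95 ± 0.56). Cd44, the hyaluronan receptor, and S1pr3, a receptor for sphingosine 1-phosphate, overlapped sham with celastrol (log2 fold changes 1.78 ± 0.62 and 0.44 ± 0.31). Both were above sham in all tMCAO libraries (3.06 ± 0.65 and 1.45 ± 0.31).

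Among the A2 genes, Tgm1, a transglutaminase that cross-links proteins, had the largest log2 fold change of the 29 genes tested in tMCAO. It had 26.2, 1.70 and 8.32 CPM in tMCAO with celastrol, 74.0, 13.6 and 47.9 CPM in tMCAO, and 0.098, 0 and 0.329 CPM in sham. The sham values rest on 7, 0 and 19 counts, so the size of its fold changes (6.42 ± 1.32 and 8.32 ± 1.40) is imprecise. Slc10a6, a transporter of sulfated steroids, had 8.87, 0.662 and 3.47 CPM in tMCAO with celastrol, 7.69, 1.88 and 3.57 CPM in tMCAO, and 0, 0.068 and 0 CPM in sham, where 4 counts were seen in all. Ptx3, a secreted pattern recognition protein, had 12.1, 1.53 and 3.10 CPM in tMCAO with celastrol, 16.4, 9.37 and 11.1 CPM in tMCAO, and 0.391, 0.321 and 0.398 CPM in sham. For these 3 genes every occluded library was above sham, and celastrol replicate 2 was the lowest of the 6 each time.

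Sphk1, the kinase that makes sphingosine 1-phosphate, had 7.10, 3.22 and 4.44 CPM in tMCAO with celastrol, 24.2, 4.54 and 5.45 CPM in tMCAO, and 1.98, 2.82 and 2.04 CPM in sham. Occluded and sham libraries did not overlap, and tMCAO replicate 1 was far above the other libraries. S100a10, the annexin A2 partner often used to mark the A2 class, had 28.7, 25.1 and 29.02 CPM in tMCAO with celastrol, 56.6, 34.6 and 38.8 CPM in tMCAO, and 17.8, 20.6 and 19.3 CPM in sham. The 3 groups formed 3 steps without overlap, where 7.86% of all genes had none between tMCAO with celastrol and tMCAO. Its log2 fold changes, 0.52 ± 0.18 with celastrol and 1.17 ± 0.19 in tMCAO, were the smallest of the A2 class and had the smallest SE of the 23 reactive genes. Tm4sf1, a membrane protein also of endothelial cells, had 47.0, 8.49 and 12.4 CPM in tMCAO with celastrol, 48.6, 17.7 and 51.9 CPM in tMCAO, and 8.36, 6.84 and 8.30 CPM in sham. Celastrol replicate 2 was barely above the highest sham library.

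The other A2 genes spread more. Cd109, a membrane protein that binds TGF-beta, and Clcf1, a cytokine of the interleukin 6 family, were above sham in all tMCAO libraries (log2 fold changes 3.69 ± 0.79 and 2.62 ± 0.61) and overlapped it with celastrol. Emp1, an epithelial membrane protein, had a higher mean with celastrol, but this came from 1 library: its values, given here after they were seen, were 45.8, 4.67 and 2.70 CPM in tMCAO with celastrol, 10.3, 2.78 and 5.34 CPM in tMCAO, and 2.74, 1.27 and 1.97 CPM in sham. B3gnt5, a glycosyltransferase of lactoseries glycolipids, was the 1 reactive gene that failed the filter. It had 8, 50 and 85 counts in tMCAO with celastrol, 214, 119 and 270 in tMCAO, and 85, 95 and 103 in sham, so the celastrol libraries were at or below the lowest sham library. In a fit with no filter its log2 fold change was −1.17 ± 0.67 for tMCAO with celastrol against sham and 0.93 ± 0.66 for tMCAO against sham.

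Of the 4 A1 genes, Srgn and Ggta1 lay above sham in every occluded library. Srgn, the core protein of granule proteoglycans, also of blood cells, had 47.8, 17.04 and 21.2 CPM in tMCAO with celastrol, 44.7, 19.2 and 30.9 CPM in tMCAO, and 6.92, 5.88 and 5.74 CPM in sham (log2 fold changes 2.21 ± 0.43 and 2.35 ± 0.43). Ggta1, which makes the alpha-gal sugar, had 16.9, 8.11 and 13.0 CPM in tMCAO with celastrol, 12.2, 7.62 and 14.7 CPM in tMCAO, and 3.75, 4.68 and 5.67 CPM in sham. Amigo2, an adhesion molecule that overlaps Pced1b on the other strand, ranged from 14.7 to 33.0 CPM in tMCAO with celastrol, 13.3 to 40.5 CPM in tMCAO and 10.9 to 23.9 CPM in sham. Fbln5, an elastic fibre protein, was above sham in all celastrol libraries and overlapped it in tMCAO.

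**Figure D2:**
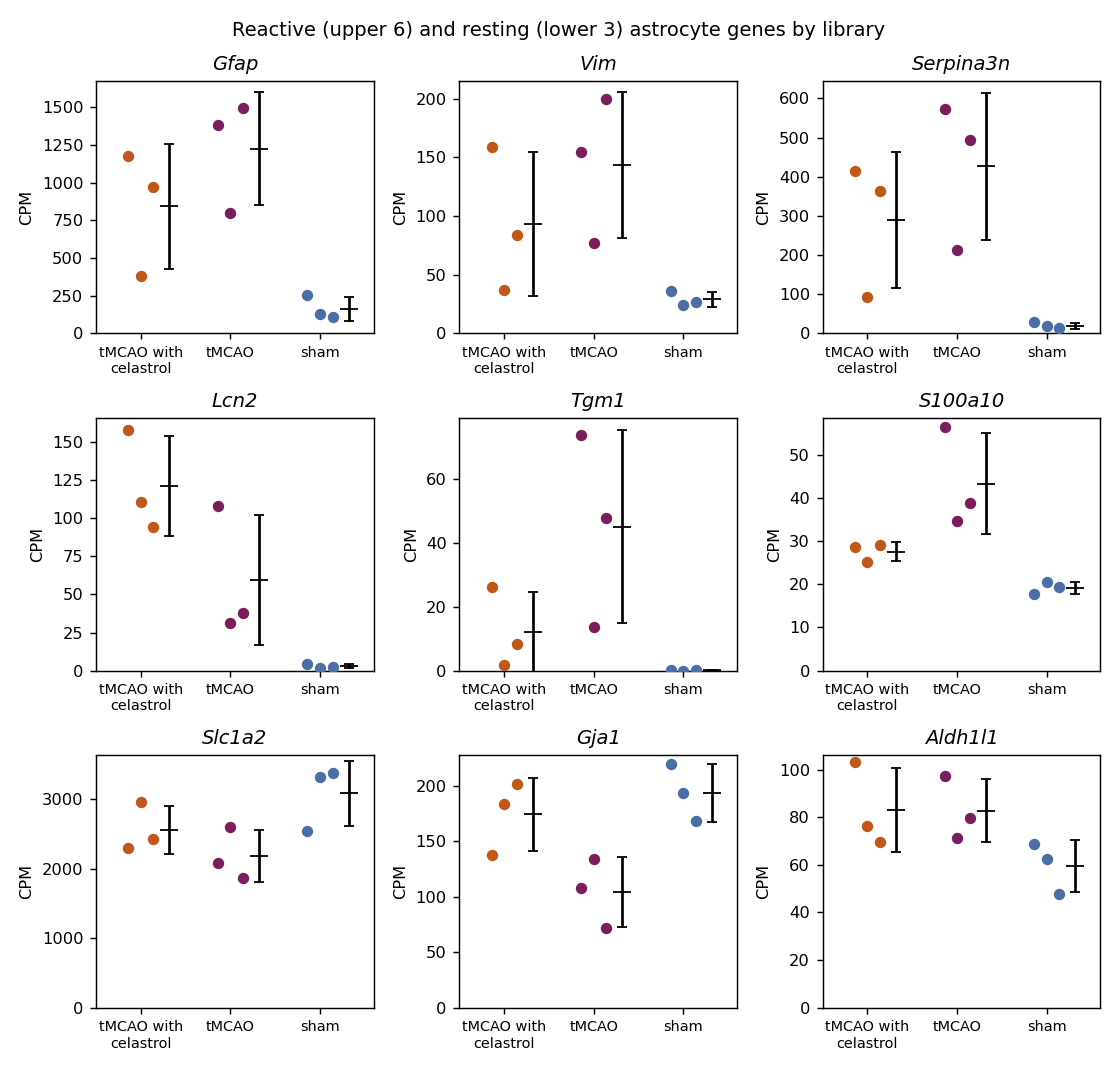
CPM of 6 reactive and 3 resting genes in each library (points) for tMCAO with celastrol, tMCAO and sham, with the mean and SD beside each group (n = 3). Gfap, Vim, Serpina3n, Lcn2, Tgm1 and S100a10 lie above sham in all 6 occluded libraries (Vim not when scaled by library totals), Gja1 is lowest in tMCAO, and Aldh1l1 is lowest in sham.

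The resting genes were all present in every library, the lowest value being 6.50 FPKM for Gja1 in tMCAO replicate 3. Their summed level, mostly that of Slc1a2, was 3194 to 3892 CPM in tMCAO with celastrol, 2786 to 3403 CPM in tMCAO and 3510 to 4308 CPM in sham. By this sum every tMCAO library lay below every sham library. At an unadjusted p under 0.05, 0 of 6 were lower in tMCAO with celastrol (2.81% of all genes), 2 in tMCAO (6.36%) and 2 in both occluded groups together (5.39%). The 2 genes were Slc1a2 and Gja1. With all libraries 1 of the 6, Aldh1l1, was higher at that p in each of these comparisons (5.69%, 8.56% and 8.00% of all genes). Without tMCAO replicate 1 or 3, or sham replicate 2 or 3, 1 gene was lower in tMCAO, and for both occluded groups together it was 1 without tMCAO replicate 1 or 3 or sham replicate 1 or 3, and 0 without sham replicate 2. Gja1, the main gap junction protein of astrocytes, had 138, 183 and 202 CPM in tMCAO with celastrol, 108, 134 and 71.5 CPM in tMCAO, and 220.3, 193 and 168 CPM in sham. The tMCAO libraries were all below sham (11.1% of all genes), and the celastrol libraries overlapped it. Its log2 fold change was −0.15 ± 0.23 with celastrol and −0.89 ± 0.24 in tMCAO (edgeR adjusted p = 0.902 and 0.180). Slc1a2, the glutamate transporter GLT-1, had 2300, 2956 and 2431 CPM in tMCAO with celastrol, 2080, 2602 and 1869 CPM in tMCAO, and 2551, 3316 and 3385 CPM in sham. Its groups overlapped (log2 fold changes −0.27 ± 0.18 and −0.50 ± 0.18).

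The other resting genes moved less or the other way. Aldh1l1, a folate enzyme widely used to mark astrocytes, had 103, 76.2 and 69.7 CPM in tMCAO with celastrol, 97.3, 71.3 and 79.5 CPM in tMCAO, and 68.6, 62.5 and 47.6 CPM in sham. Every occluded library was above sham, though under upper quartile scaling they overlapped, and its log2 fold change was 0.48 ± 0.20 with celastrol and 0.47 ± 0.20 in tMCAO (edgeR adjusted p = 0.552 and 0.318). Aqp4, the water channel of astrocyte end-feet, had 112, 69.0 and 146 CPM in tMCAO with celastrol, 113, 129 and 146 CPM in tMCAO, and 130.4, 105 and 107 CPM in sham. Slc1a3, the glutamate transporter GLAST, had 467, 519 and 438 CPM in tMCAO with celastrol, 527, 389 and 581 CPM in tMCAO, and 465, 579.9 and 554 CPM in sham. Gjb6, the second astrocyte connexin, had 74.3, 88.7 and 80.6 CPM in tMCAO with celastrol, 54.3, 76.7 and 38.6 CPM in tMCAO, and 74.1, 46.3 and 46.3 CPM in sham. Aqp4 and Slc1a3 overlapped across the 3 groups, and Gjb6 was barely above sham in the celastrol libraries.

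The mean log2 change from the sham mean over the 23 reactive genes was 3.19, 1.27 and 2.33 in tMCAO with celastrol, 3.56, 2.22 and 2.89 in tMCAO, and 0.21, −0.26 and 0.05 in sham. Of these 23, 8 passed the filter only through occluded libraries. Over the 13 reactive genes at an FPKM of 0.5 or more in every sham library it was 2.29, 0.94 and 1.74 in tMCAO with celastrol, 2.56, 1.46 and 2.11 in tMCAO, and 0.19, −0.15 and −0.05 in sham. The same mean over the 6 resting genes was 0.03, 0.04 and 0.11 in tMCAO with celastrol, −0.11, −0.04 and −0.28 in tMCAO, and 0.10, 0.00 and −0.10 in sham. Markers of other cells moved with the occluded groups in part. Summed endothelial markers were 342 to 497 CPM in tMCAO with celastrol, 325 to 411 CPM in tMCAO and 339 to 350 CPM in sham, and microglia markers were 399 to 500 CPM, 327 to 664 CPM and 350 to 430 CPM in the same order. Single microglia markers went both ways: in tMCAO 2 were higher (8.56% of all genes) and 3 lower (6.36%) at an unadjusted p under 0.05. Of 11 endothelial markers, 6 were higher (5.69% of all genes) and 2 lower (2.81%) with celastrol at that p. In tMCAO 4 of them were higher (8.56%) and 2 lower (6.36%). The median log2 fold changes of the 11 were 0.52 with celastrol and 0.44 in tMCAO. Monocyte and macrophage markers, a sum mostly of Fn1, were 153 to 175 CPM in tMCAO with celastrol, 96.4 to 285 CPM in tMCAO and 90.1 to 128 CPM in sham. Plac8 and F10 were at 0 in sham. Neuron markers were 6835 to 11010 CPM, 6927 to 8050 CPM and 8176 to 9924 CPM, and celastrol replicate 2 held the highest value. Choroid plexus markers were 409 to 2459 CPM in tMCAO with celastrol, highest in replicate 1, which also had the highest Emp1, against 152.6 to 738 CPM in tMCAO and 222 to 293 CPM in sham. The part of these cells in the reactive genes' levels was not tested.

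**Figure D3:**
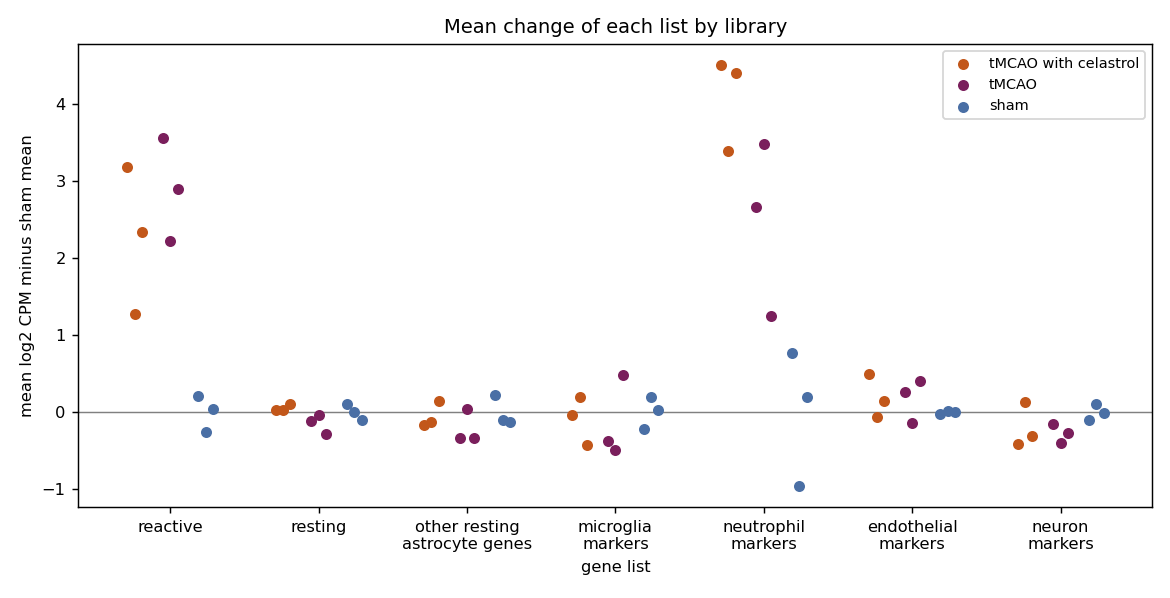
Mean log2 CPM of each list minus its mean over the sham libraries, 1 point per library, for tMCAO with celastrol, tMCAO and sham. The reactive list, 8 of whose 23 genes passed the filter only through occluded libraries, stands at 1.27 to 3.56 in those. The neutrophil list, 3 of whose 6 tested genes passed only that way, is also above sham in them. The means of the resting, microglia, endothelial and neuron lists lie between −0.486 and 0.495.

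The comparison of tMCAO with celastrol against tMCAO asks what the drug changed after occlusion. The reactive genes were lower with celastrol for 20 of 23, with a median log2 fold change of −0.55 (all genes 0.00), but few differences exceeded the spread between libraries. Of the 29 genes tested, 3 had an unadjusted p under 0.05, against 4.11% of all genes, and 0 were called (edgeR adjusted p at least 0.976). Of these 29, groups without overlap numbered 2, S100a10 and Gja1, a share no larger than the 7.86% of all genes. S100a10 was lower with celastrol (27.6 ± 2.15 CPM with celastrol and 43.3 ± 11.7 CPM in tMCAO, SD, n = 3 each; log2 fold change −0.65 ± 0.18). S1pr3 was lower too (16.1 ± 4.04 and 32.4 ± 13.8 CPM in the same order; −1.01 ± 0.31), with groups that overlapped. Gja1 was higher with celastrol (174 ± 33.2 and 104 ± 31.5 CPM; 0.74 ± 0.23). B3gnt5, without the filter, was lower (−2.10 ± 0.69).

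The remaining differences for the drug had wide errors. Gfap gave −0.54 ± 0.46, Vim −0.62 ± 0.50, Nes −1.36 ± 0.67, Serpina3n −0.55 ± 0.56 and Tgm1 −1.90 ± 0.98. Lcn2 (1.03 ± 0.50) and Emp1 (1.53 ± 0.97) had higher means with celastrol. The size of the reactive median depended on single libraries. It was −0.91 without celastrol replicate 1, when 9 reactive genes were lower at an unadjusted p under 0.05. In that fit 1070 of 16700 genes reached this p in either direction. The median was −0.19 without celastrol replicate 2, when 2 reactive genes were lower and 547 of 16847 genes reached that p. It was −0.29 without tMCAO replicate 1. Without tMCAO replicate 2, 6 reactive genes were lower, where 951 of 16788 genes reached that p. The comparisons share libraries.

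**Figure D4:**
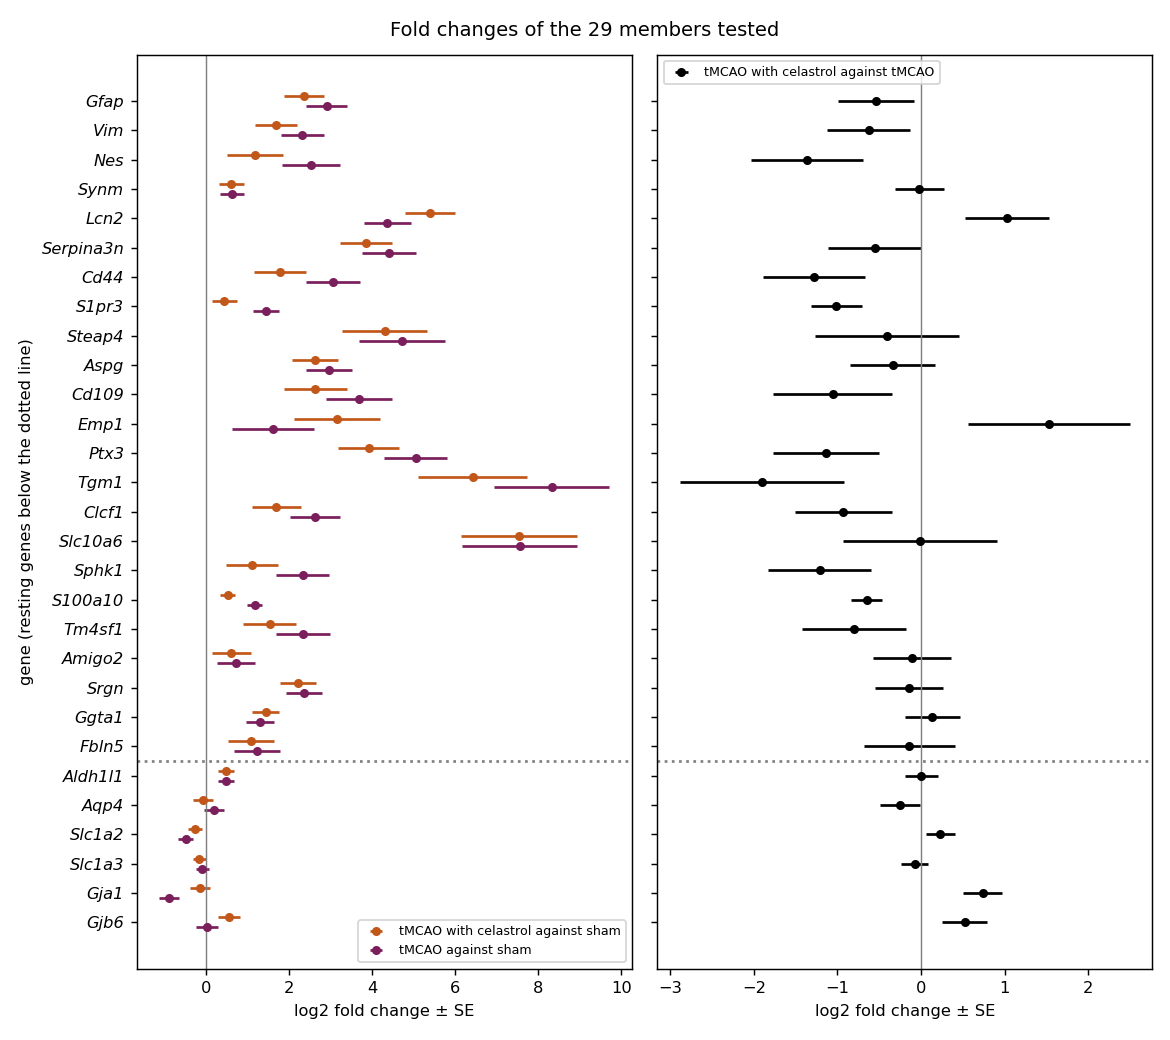
Log2 fold change ± SE of the 29 genes tested: tMCAO with celastrol and tMCAO, each against sham (left), and tMCAO with celastrol against tMCAO (right), with resting genes below the dotted line. The reactive genes lie right of 0 against sham, and most lie left of 0 for the drug with bars that often reach it. The resting genes lie between −0.89 (Gja1 in tMCAO) and 0.74 (Gja1 for the drug).

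Other genes of the same pathways were taken from lists made for these data. Of 22 other reactive astrocyte genes tested, 15 were higher in tMCAO with celastrol (5.69% of all genes) and 18 in tMCAO (8.56%) at an unadjusted p under 0.05, with median log2 fold changes of 1.67 and 1.85 and 0 called. Of the 22, 4 passed the filter only through occluded libraries. Those with the smallest p in tMCAO were Osmr, C4b, Cd14 and Timp1. Osmr, the oncostatin M receptor, had 56.4, 18.6 and 49.6 CPM in tMCAO with celastrol, 55.8, 33.5 and 81.8 CPM in tMCAO, and 9.59, 5.95 and 7.52 CPM in sham. C4b, a complement component, had a log2 fold change of 2.14 ± 0.38 with celastrol and 2.35 ± 0.38 in tMCAO. Of 29 other resting genes, 1 was lower (2.81% of all genes) and 2 higher (5.69%) with celastrol at that p, and 7 were lower (6.36%) and 2 higher (8.56%) in tMCAO. The 7 became 3 without tMCAO replicate 1 or 3 and 4 without sham replicate 1, sham replicate 2 or celastrol replicate 3. Mfge8, a secreted phagocytosis bridge, had 59.1, 78.1 and 70.1 CPM in tMCAO with celastrol, 37.5, 31.0 and 73.8 CPM in tMCAO, and 113, 130.5 and 105 CPM in sham, and every occluded library was below sham.

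Of 14 tested genes of the gp130 cytokine and STAT3 pathway, 5 were higher with celastrol (5.69% of all genes) and 5 in tMCAO (8.56%) at an unadjusted p under 0.05, and 0 were lower. Of the 14, 2 passed the filter only through occluded libraries. Socs3, the feedback inhibitor that STAT3 induces, had 43.6, 10.8 and 26.1 CPM in tMCAO with celastrol, 57.6, 20.01 and 33.6 CPM in tMCAO, and 5.74, 3.65 and 3.99 CPM in sham. Stat3 itself had 156, 59.2 and 86.2 CPM in tMCAO with celastrol, 176, 100.2 and 139.8 CPM in tMCAO, and 52.4, 48.0 and 54.3 CPM in sham. Both were above sham in every occluded library, and celastrol replicate 2 was the lowest of them. The count with celastrol was 3 without sham replicate 2 or celastrol replicate 1. Of 11 tested signals that can induce the reactive state, 5 were higher with celastrol (5.69% of all genes) and 9 in tMCAO (8.56%) at an unadjusted p under 0.05, and 1 of the 11 passed the filter only through occluded libraries. The 9 became 3 without any one of tMCAO replicates 1 and 3 and sham replicate 3, and 5 without sham replicate 1. The 5 became 2 without either celastrol replicate 1 or sham replicate 3, 3 when tMCAO replicate 3 was left out and 8 when celastrol replicate 2 was. Among them the complement subunit C1qb had 73.8, 66.3 and 69.6 CPM in tMCAO with celastrol, 55.4, 51.5 and 91.8 CPM in tMCAO, and 34.7, 37.0 and 32.1 CPM in sham. Il1a, a cytokine of microglia, had 0.721, 0.426 and 1.20 CPM in tMCAO with celastrol, 3.89, 1.09 and 2.17 CPM in tMCAO, and 0.530, 0.744 and 0.398 CPM in sham.

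Around Sphk1 and S1pr3, 6 of 8 other sphingosine 1-phosphate genes were tested and 0 were called. At an unadjusted p under 0.05, 2 were higher (5.69% of all genes) and 1 lower (2.81%) with celastrol. In tMCAO 1 was higher (8.56%) and 1 lower (6.36%). For the drug 2 were higher and 1 lower (4.11% of all genes in either direction), with an edgeR adjusted p of at least 0.976. Groups without overlap for the drug numbered 3 (7.86% of all genes). S1pr1, the receptor of resting astrocytes and endothelium, was below sham in all occluded libraries (log2 fold change −0.34 ± 0.12 with celastrol and −0.54 ± 0.12 in tMCAO). Sgpl1, the lyase that degrades the lipid, was above sham in tMCAO (0.64 ± 0.15) and lay below tMCAO in all celastrol libraries (−0.46 ± 0.15). Spns2, the exporter of the lipid, was above tMCAO and above sham in all celastrol libraries (0.69 ± 0.24 and 0.91 ± 0.24). Of 10 tested other intermediate filament genes, 2 were higher in tMCAO at an unadjusted p under 0.05 (8.56% of all genes), the lamin Lmna and the keratin Krt18, and this count ranged from 0 to 2 with 1 library left out. Of the 10, 2 passed the filter only through occluded libraries, Krt18 among them, so its direction was set by the filter. Krt18 had 0.112, 0 and 0 CPM in sham and 0.124 CPM in tMCAO replicate 3. The neurofilament genes Nefl and Nefm gave −0.46 ± 0.21 and −0.47 ± 0.32 in tMCAO.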

How the data were processed

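Total RNA of mouse hemispheres was sequenced in 9 libraries after ribosomal RNA depletion, as paired reads, per the labels' protocols. The authors deposited 1 table with an estimated count per gene and library, held as whole numbers, and a deposited FPKM value beside it. The submitters' processing notes name the build mm10 and the tools StringTie 1.3.4d, HISAT2 2.0.4, cutadapt 1.9, DESeq2 and edgeR, without settings. The strand of counting is not stated. The test took the 16982 genes that reached an FPKM of 0.5 in 3 or more libraries. All 9 libraries entered 1 edgeR 4.0.16 quasi-likelihood fit (R 4.3.3, TMM, two-sided, Benjamini-Hochberg), tested on simulated data. SE is approximate: the size of the log2 fold change over the square root of its F statistic. Alternatives used DESeq2 1.42.0 and limma 3.58.1, other scalings and filters, and each library left out. Values per library were printed for filament and resting genes and for reactive genes called or without overlap with sham, and of other lists for up to 4 genes of smallest p in tMCAO. The genes and lists were chosen with earlier results of these data known. Same-numbered libraries deviated together in 3 of 9 pairs (r over 0.1), so numbers were not taken to pair libraries. No 2 libraries agreed within sampling noise. Depth was 60392960 to 75158625 counts, and a count of 0 allows up to 3, for counting error only. Promoter windows came from RefSeq.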

Additional observations from a re-analysis of the deposited data

How the results depend on the processing

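The number of genes called over the whole table depended on the test and on single libraries. For both occluded groups together, tMCAO, and tMCAO with celastrol, each against sham, edgeR called 2, 0 and 1 genes. DESeq2 called 797, 836 and 380, and 19 for the drug. The newer quasi-likelihood form called 5, 2 and 6. With no filter 4 genes were called for both groups together and 3 with celastrol, and with an FPKM filter of 1 there were 2 with celastrol. Limma voom called 0 in both of these, and limma on log2(FPKM + 0.1) called 29, 2 and 3. With only the groups compared, 30 were called in tMCAO and 4 with celastrol. With the replicate block 64, 51 and 22 genes were called, 6, 6 and 1 of them among the 30; 3 of 9 same-numbered pairs had a correlation over 0.1 (range −0.16 to 0.20), and the cause of the gain was not tested. With 1 library left out the counts ran from 0 to 198, 0 to 90 and 0 to 43, and from 0 to 2 for the drug. The highest were without celastrol replicate 2. Where 2 libraries remain in a group, they are assumed to vary like the others.

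For the drug, 3 of the 30 genes had an unadjusted p under 0.05, 7 by DESeq2, by limma voom and by limma on FPKM with each pseudocount (0.5, 0.1 and 1), 9 with the replicate block, and 3 to 10 with 1 library left out. Resting genes lower at that p numbered 1 to 2 in tMCAO and 0 to 2 in both groups together with 1 library left out. Some directions turned. For the drug, Aldh1l1 (0.0052) gave −0.0047 by upper quartile scaling, −0.029 by library totals, −0.0035 by voom, −0.0457, −0.0472 and −0.044 by limma on FPKM (pseudocounts 0.5, 0.1 and 1) and −0.0071 with the replicate block. In the same comparison Synm (−0.02) gave 0.0573 by voom, 0.0105, 0.0136 and 0.0071 by limma on FPKM and 0.0359 with the block, and Fbln5 gave 0.0074 by voom. Slc1a3 in tMCAO gave 0.0109 by library totals, which shifted the median of all genes by 0.11. With 1 library left out, drug differences ran from −0.19 to 0.14 for Aldh1l1, −0.42 to 0.38 for Amigo2, −0.91 to 0.15 for Aspg, −0.74 to 2.12 for Emp1, −0.68 to 0.61 for Fbln5, −0.13 to 0.38 for Ggta1, −1.08 to 0.67 for Slc10a6, −0.23 to 0.0539 for Slc1a3, −0.73 to 0.19 for Srgn, −0.85 to 0.53 for Steap4 and −0.29 to 0.38 for Synm. Against sham, Aqp4 ran from −0.34 to 0.17 with celastrol and −0.0805 to 0.18 in both groups together, and in tMCAO Gjb6 ran from −0.25 to 0.29 and Slc1a3 from −0.22 to 0.0619. The cause was not tested. The depth leaves the sham levels of Tgm1, Slc10a6 and Steap4, with 26, 4 and 45 counts over the group, imprecise.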
